A study of Homo sapiens with 9 samples.

Results

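The transcripts described here are the rows of an expression array table whose identifiers begin with TC06, the array's prefix for chromosome 6. They number 1098 of 21448 rows. A single gene symbol was paired with 926 of them, and all 926 symbols lie on chromosome 6 in the RefSeq annotation of GRCh38.p14, which gave the gene order. The other 172 rows have no single symbol, so they were counted but not placed. Protein-coding genes made up 892 of the placed rows. The table was split at 6.61, the median of its row means on the log2 scale, which left 572 chromosome 6 rows at or above it (510 of them placed) and 526 below. On the lower side the nearest rows were NOTCH4 at a mean signal of 6.57, HFE at 6.59 and ALDH5A1 at 6.60. ZSCAN16 at 6.63, H3C10 at 6.65 and C6orf147 at 6.65 lay just above. Chromosome 6 was chosen by the differences of sh2 and sh1 from the control, since shifts over neighbouring genes had already been seen on it, so its regional medians and counts are descriptions and carry no test.

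The cells were AsPC-1, an established line of human pancreatic adenocarcinoma. In the sh2 and sh1 lines a plasmid expressed 1 of 2 short hairpin RNAs (shRNAs) against SLP-2, the mitochondrial membrane protein encoded by STOML2, and the control line carried the blank pBAsi-hU6 NEO plasmid. All 3 lines were selected with Geneticin for 3 weeks and grown from 1 colony each, and every line had 3 arrays. Each line is thus 1 clone, nothing states that its arrays came from separate cultures, and the p-values reflect how far arrays of a clone scatter and may hold technical error alone. Both lines were set against the same control clone, so a shift common to sh2 and sh1 and a property of the control clone cannot be told apart. Likewise fewer cells with a transcript and less RNA per cell cannot be told apart in bulk RNA.

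Array medians were 6.57 to 6.65. STOML2 had log2 signals of 7.85, 7.99 and 7.35 in sh2, 8.36, 8.42 and 8.18 in sh1, and 13.70, 13.66 and 13.65 in the control, a fall of 5.94 in sh2 and of 5.35 in sh1 (limma, adjusted p = 1.63e-09 and 2.31e-09). Of 10 markers of a ductal carcinoma line, 7 were at or above the median signal in every group, as were 2 of 7 fibroblast or mesenchymal markers in sh2 and 4 in sh1 and in the control, while none of the leukocyte, endothelial, acinar or islet markers was. The lines also differed in single markers, not all of them in 1 direction. EPCAM averaged 9.68 in sh2, 13.88 in sh1 and 8.94 in the control, and CDH2 averaged 5.84 in sh2, 6.81 in sh1 and 11.92 in the control. CDH1 averaged 8.19 in sh2, 10.74 in sh1 and 8.71 in the control, KRT19 averaged 15.62 in sh2, 14.50 in sh1 and 16.19 in the control, and COL1A1 averaged 6.36 in sh2, 6.65 in sh1 and 9.84 in the control. The mesenchymal marker VIM was bright in every group, at 16.40 in sh2, 15.68 in sh1 and 16.45 in the control. The ductal markers CEACAM6, S100P and TSPAN8 averaged below the median signal in every group. KRT8 rose by 0.70 in sh2 and 0.71 in sh1, and KRT18 by 1.27 in sh2 and 1.21 in sh1. The part of such clone differences in the values below was not tested.

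Chromosome 6 carries several clusters of related genes. The short arm (6p) holds the large cluster of replication-dependent histone genes, which are transcribed mainly in S phase, and beside it the major histocompatibility complex (MHC). Class I molecules of the MHC show peptides from inside the cell to T cells. The peptides are cut by the proteasome, which in its inducible form holds the subunits PSMB8 and PSMB9, pumped into the endoplasmic reticulum by the transporter TAP1 and TAP2, and loaded with the help of tapasin, the product of TAPBP. Between the MHC and the centromere lie CDKN1A, which encodes the cell cycle inhibitor p21, and regulators such as CCND3, PIM1, VEGFA and RUNX2. The long arm (6q) carries tumour suppressor candidates such as PRDM1 and TNFAIP3 and the connexin gene GJA1.

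Promoters are shown for 6 genes on which the results turn: TAPBP, TAP1 and PSMB9 from the stretch of the MHC that was lower in both lines, H1-3 from the histone cluster, GJA1, which rose most in sh2, and DSP, which went opposite ways. They are the 250 bases before the annotated start, 5′ to 3′ on the gene's strand, from RefSeq (GRCh38.p14). They lie at chr6:33314079-33314328 (minus strand) for TAPBP, chr6:32853705-32853954 (minus) for TAP1, chr6:32853942-32854191 (plus) for PSMB9, chr6:26234988-26235237 (minus) for H1-3, chr6:121435396-121435645 (plus) for GJA1 and chr6:7541421-7541670 (plus) for DSP. Capitals mark matches on either strand to CCAAT (the CCAAT box), TATAAA (the TATA box), GGGCGG (an SP1-type GC box), TGANTCA (AP-1-type) and a pair of GAAA spaced by 2 bases (interferon-response-type).
TAPBP: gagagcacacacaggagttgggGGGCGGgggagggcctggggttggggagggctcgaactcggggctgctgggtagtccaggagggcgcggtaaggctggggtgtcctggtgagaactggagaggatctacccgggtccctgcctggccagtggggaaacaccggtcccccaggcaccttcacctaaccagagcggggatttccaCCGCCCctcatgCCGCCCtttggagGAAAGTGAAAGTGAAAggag
TAP1: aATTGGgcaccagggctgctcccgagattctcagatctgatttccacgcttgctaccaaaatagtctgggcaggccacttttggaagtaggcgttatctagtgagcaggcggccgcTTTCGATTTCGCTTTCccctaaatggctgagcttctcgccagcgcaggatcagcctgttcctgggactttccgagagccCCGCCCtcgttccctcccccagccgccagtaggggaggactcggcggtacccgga
PSMB9: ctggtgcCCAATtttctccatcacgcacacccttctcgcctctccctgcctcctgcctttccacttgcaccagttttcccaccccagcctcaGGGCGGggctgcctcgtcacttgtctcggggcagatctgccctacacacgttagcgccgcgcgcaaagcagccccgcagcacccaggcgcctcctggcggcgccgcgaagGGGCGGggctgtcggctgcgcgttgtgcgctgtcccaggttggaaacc
H1-3: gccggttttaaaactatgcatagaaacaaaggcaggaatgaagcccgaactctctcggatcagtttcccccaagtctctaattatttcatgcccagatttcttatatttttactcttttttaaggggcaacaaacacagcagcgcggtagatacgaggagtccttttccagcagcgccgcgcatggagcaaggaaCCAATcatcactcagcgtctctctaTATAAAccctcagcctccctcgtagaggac
GJA1: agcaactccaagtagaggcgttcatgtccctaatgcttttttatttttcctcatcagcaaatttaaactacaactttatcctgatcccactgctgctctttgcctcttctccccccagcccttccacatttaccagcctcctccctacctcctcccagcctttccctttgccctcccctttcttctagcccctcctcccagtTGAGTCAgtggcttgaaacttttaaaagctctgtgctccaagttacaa
DSP: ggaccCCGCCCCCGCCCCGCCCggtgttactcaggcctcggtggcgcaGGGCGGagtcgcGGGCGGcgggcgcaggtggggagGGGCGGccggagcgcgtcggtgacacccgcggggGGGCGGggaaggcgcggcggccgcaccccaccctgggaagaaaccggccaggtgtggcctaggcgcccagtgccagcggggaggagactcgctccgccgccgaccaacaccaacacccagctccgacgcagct

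TAP1 and PSMB9 stand head to head, and their windows overlap, so the CCAAT of one is read in the other on the opposite strand. TAPBP and TAP1 each hold a pair of overlapping matches to the spaced GAAA pair, which 3.07% of the 27305 promoters of the table and 3.53% of the 821 chromosome 6 rows with a promoter there contain. H1-3 holds CCAAT (33.0% of all promoters) and TATAAA (11.1%), GJA1 holds TGANTCA (6.60%), and DSP, PSMB9, TAPBP and TAP1 hold GGGCGG (42.3%), in DSP with overlapping matches. Among the 821 chromosome 6 rows the shares were 37.3% for CCAAT, 14.6% for TATAAA, 5.12% for TGANTCA and 55.9% for GGGCGG. A match describes the letters only and shows neither binding nor a cause.

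More chromosome 6 rows were lower than higher in both lines. In sh2, 257 of 1098 rows passed the test (limma over all rows, Benjamini-Hochberg adjusted p under 0.05), 205 lower and 52 higher, which is 23.4% beside 16.3% of all rows of the table (7.98% lower and 8.33% higher). In sh1, 282 rows passed, 217 lower and 65 higher, which is 25.7% beside 18.8% of all rows (9% lower and 9.76% higher). Rows lower in both lines numbered 149 (13.6%, beside 4.65% of all rows), rows higher in both 26 (2.37%, beside 4.28%), and rows with opposite changes 5 (0.455%, beside 0.536%). Both comparisons use the same control arrays, so a common direction is in part built in. Since the chromosome was chosen with these shifts known, nothing further is read from the shares.

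The calls came mostly from the brighter rows. At or above the median signal, 221 of 572 rows passed in sh2 (38.6%, beside 26.5% of all such rows) and 234 in sh1 (40.9%, beside 30% of all such rows), with median differences of -0.20 in sh2 and -0.23 in sh1. Below it, 36 of 526 rows passed in sh2 and 48 in sh1, and the medians were 0.00 in sh2 and -0.01 in sh1. The 62 bright rows without a placed symbol behaved like the placed ones, with medians of -0.26 in sh2 and -0.15 in sh1. The split uses the mean of all 9 arrays, so a gene bright in the control alone, such as UST, falls below it. Directly between the lines 132 rows passed, 69 higher and 63 lower in sh2 than in sh1, which is 12.02% beside 11.3% of all rows (5.73% higher and 5.57% lower). Without sh2 array 3 the 69 became 45. At or above the median signal 63 rows were higher and 52 lower in sh2 than in sh1, beside 9.29% and 8.63% of all bright rows.

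**Figure D1:**
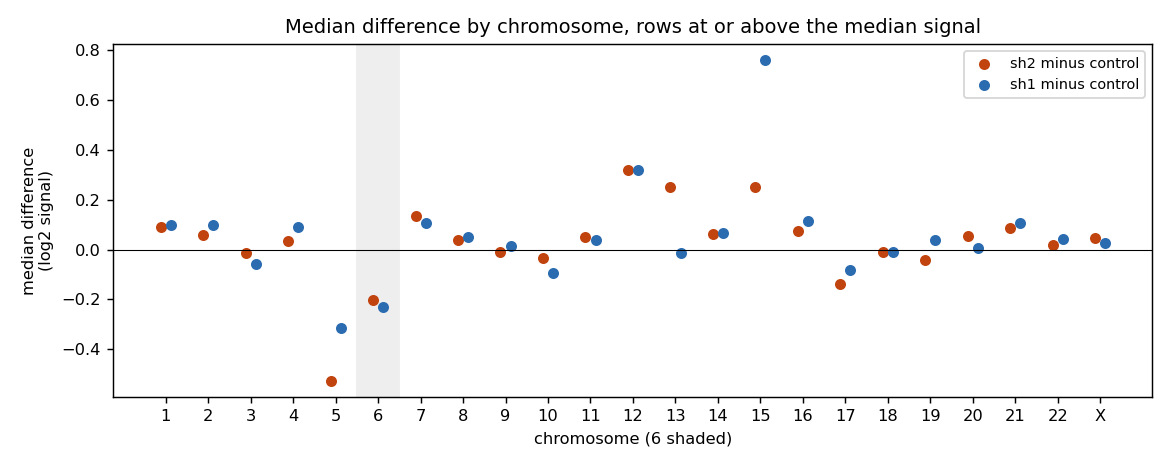
Median difference from the control (log2 signal, vertical axis) over rows at or above the median signal on each chromosome, for sh2 and sh1. Chromosome 6 (shaded) sits at -0.20 in sh2 and -0.23 in sh1, with chromosome 5 lower than it in both lines.

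By the median difference of its bright placed rows, chromosome 6 was the next lowest of 23 chromosomes in sh2 and in sh1, after chromosome 5, as the plot by chromosome shows. Rows on the other chromosomes had medians of 0.04 in sh2 and 0.05 in sh1. In the direct difference of sh2 and sh1 its median was -0.01, near the middle of the order (place 12 of 23).

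The shift was uneven along the chromosome. The gene order was read with a running median over 40 placed bright rows, and a run was defined as at least 40 rows in a row with a running median beyond 0.4 in size. In sh2, 2 runs below the control were found, 1 of 53 rows from MICA to TEAD3 and 1 of 79 rows from CDKN1A to PRIM2, the last placed bright gene of 6p. In sh1, 1 run of 72 rows from C6orf89 to BEND6 was found, and a stretch of 37 rows from HLA-C to UQCC2 passed the size but was too short. Without sh2 array 3 the sh2 runs came to 79 rows, from PPIL1 to PTP4A1, in place of 132. The 2 sh2 runs merged into 1 of 134 rows without control array 2 and 1 of 141 rows without sh2 array 1. They also merged with a window of 60 rows (134 rows) and at a size of 0.3 (143 rows), so the gap between them was not stable. In the order of the row identifiers the sh2 runs had other limits, RING1 to ZNF451 and CUTA to EEF1A1. The direct difference of the lines held no run, and its running median stayed between -0.19 at DEK and 0.18 at MCM9.

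**Figure D2:**
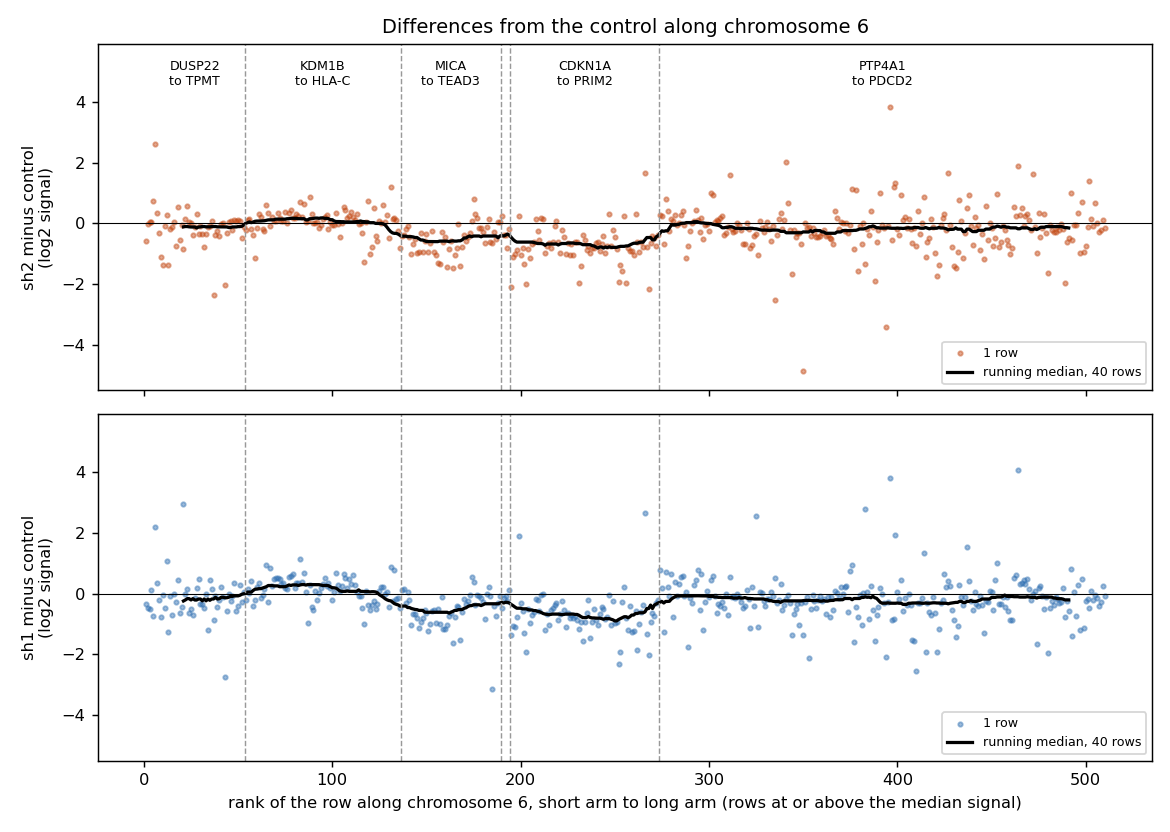
Differences from the control (log2 signal, vertical axes) for 510 placed rows in gene order (horizontal axis), sh2 above and sh1 below, with the running median over 40 rows as a line and dashed lines at the limits of the stretches. The line lies lowest at -0.82 near GTPBP2 in sh2 and at -0.90 near NFKBIE in sh1, both between CDKN1A and PRIM2.

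The limits of the sh2 runs and the first sign change of the sh1 running median, at KDM1B, divide 6p into 5 stretches. All were read off after the values were seen, and the stretches were used for both lines. In the stretch from CDKN1A to PRIM2 (79 bright rows) the median difference was -0.75 in sh2 and -0.73 in sh1, or 0.593 and 0.602 of the control signal. Rows below 0 numbered 70 in sh2 and 76 in sh1. The test called 59 lower and 1 higher in sh2, and 56 lower and 2 higher in sh1, with 50 lower and 1 higher in both, beside 12.9% lower and 13.6% higher in sh2, 14.3% lower and 15.7% higher in sh1 and 7.48% lower and 7.42% higher in both among all bright rows. As a level per array, the median over the rows of the array minus the control mean was taken. Each control array was set against the mean of the other control arrays, which widens their spread. The levels were -0.65, -0.75 and -0.77 in sh2, -0.72, -0.74 and -0.77 in sh1, and 0.03, -0.06 and 0.04 in the control arrays. Those of the control are centred near 0 by construction. The sh2 and sh1 arrays overlapped each other and lay well below all control arrays.

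Within this stretch the shift was seen on both strands and in rows of low, middle and high signal above the split. Rows on the plus strand (37) had medians of -0.79 in sh2 and -0.69 in sh1, and rows on the minus strand (34) had -0.73 in both. From the dimmest to the brightest of 3 equal sets the medians were -0.79, -0.76 and -0.68 in sh2 and -0.64, -0.71 and -0.79 in sh1. The 88 rows of the stretch below the split had medians of -0.00 in sh2 and 0 in sh1. Even so, 7 of them were called lower in sh2 and 9 in sh1, beside 27 and 30 of all 526 chromosome 6 rows below the split. Among all rows of the table, bright ones included, 7.98% were lower in sh2 and 9% in sh1.

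From MICA to TEAD3 (53 bright rows), the part of the MHC toward the centromere with the genes beyond it, the median was -0.52 in sh2 and -0.53 in sh1. The test called 23 rows lower (43.4%) and 1 higher (1.89%) in sh2, and 25 lower (47.2%) and 1 higher (1.89%) in sh1. Among all bright rows 12.9% were lower and 13.6% higher in sh2, and 14.3% and 15.7% in sh1. In both lines 18 rows of the stretch were lower, beside 7.48% of all bright rows. Array levels were -0.36, -0.52 and -0.61 in sh2, -0.49, -0.52 and -0.56 in sh1, and 0.105, -0.095 and -0.01 in the control. They did not overlap those of the control in either line. Between these stretches, 5 bright rows from SRPK1 to SRSF3 had a median of -0.38 in sh2 and -0.13 in sh1.

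The histone stretch from KDM1B to HLA-C (83 bright rows) went slightly the other way, with a median of 0.08 in sh2 and 0.17 in sh1. The test called 8 rows lower (9.64%) and 5 higher (6.02%) in sh2, against the direction of the median. In sh1 it called 6 lower (7.23%) and 9 higher (10.8%). Each of these shares was below that of all bright rows given above. Array levels were 0.20, 0.06 and -0.01 in sh2, 0.19, 0.22 and 0.05 in sh1, and 0.095, -0.005 and -0.105 in the control, and both lines overlapped the control. From DUSP22 to TPMT at the end of 6p (53 bright rows) the median was -0.10 in sh2 and -0.22 in sh1. Here the sh1 levels (-0.14, -0.31 and -0.21) lay below those of the control (0.02, -0.08 and 0.04), whereas the sh2 levels (-0.06, -0.13 and -0.13) overlapped them.

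**Figure D3:**
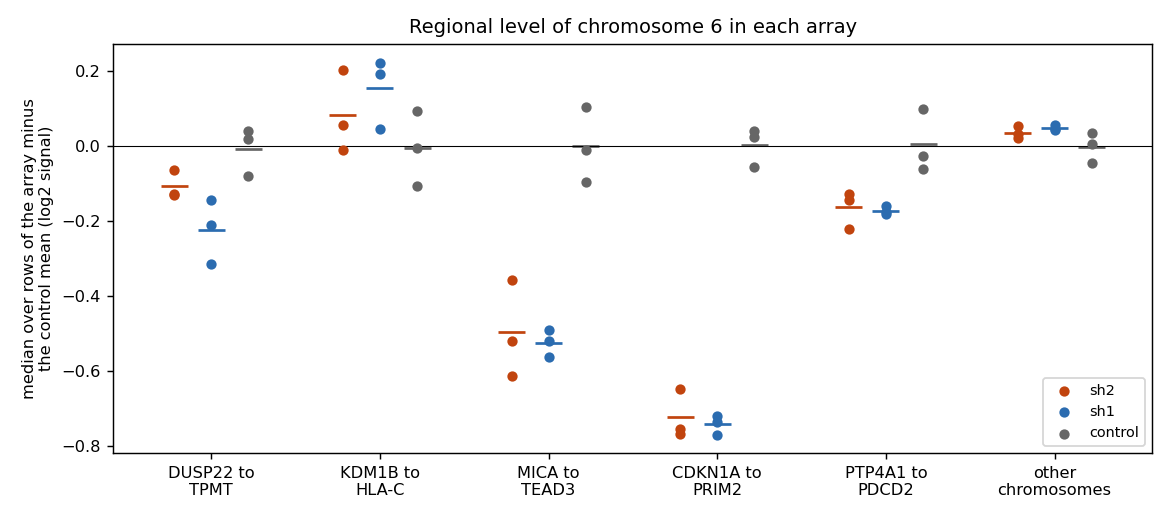
Level of each array (points) and the group mean (lines) in 5 stretches of chromosome 6 and on the other chromosomes, as the median over bright rows of the array minus the control mean (log2 signal, vertical axis), for sh2, sh1 and the control. Each control array is set against the mean of the other control arrays. From CDKN1A to PRIM2 the sh2 and sh1 arrays lie between -0.65 and -0.77, below all control arrays, and on the other chromosomes all groups lie near 0.

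The arms met with a step. The last 10 bright rows of 6p, from GCLC to PRIM2, had a median of -0.63 in sh2 and in sh1, and the first 10 of 6q, from PTP4A1 to KHDC3L, had 0.18 in sh2 and 0.20 in sh1. The whole of 6q (237 bright rows) had a median of -0.16 in sh2 and -0.17 in sh1, against -0.29 and -0.30 for 6p (273 bright rows). The test called 59 rows of 6q lower (24.9%, beside 12.9% of all bright rows) and 28 higher (11.8%, beside 13.6%) in sh2, and 66 lower (27.8%, beside 14.3%) and 26 higher (11%, beside 15.7%) in sh1. Array levels of 6q were -0.22, -0.14 and -0.13 in sh2, -0.18, -0.16 and -0.18 in sh1, and -0.025, -0.06 and 0.10 in the control, with no overlap with the control.

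Along 6q, cut into 4 equal sets of rows, the lines were close in all sets but that from ASF1A to RAB32, where the median was -0.16 in sh2 and -0.31 in sh1. The levels there were -0.24, -0.14 and -0.09 in sh2 and -0.29, -0.38 and -0.34 in sh1, and they did not overlap between the lines. The other sets had medians of -0.06, -0.24 and -0.13 in sh2 and -0.08, -0.23 and -0.14 in sh1. Of the 27 rows from ASCC3 to FIG4, 23 were below 0 in sh2 and all 27 in sh1. Over all bright rows of 6q, 65.0% were below 0 in sh2 and 68.8% in sh1. These 27 rows are 1 of several bins along the chromosome, and they are named as the most one-sided in sh1 after the values were seen.

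Of the 6 brightest genes from CDKN1A to PRIM2, ELOVL5, GLO1, MTCH1 and ZFAND3 fell in both lines, DST fell in sh1, and HSP90AB1 passed in neither. ELOVL5, an elongase of polyunsaturated fatty acids, had 14.87, 14.90 and 14.79 in sh2, 14.74, 14.84 and 14.78 in sh1, and 15.68, 15.79 and 15.88 in the control. It fell by 0.93 in sh2 (limma, adjusted p = 0.000211) and by 1.00 in sh1 (adjusted p = 0.000101), with no overlap with the control. GLO1, which detoxifies methylglyoxal, fell by 0.69 in both lines, and MTCH1, a mitochondrial outer membrane protein, by 0.87 in sh2 and 0.77 in sh1. ZFAND3 fell by 0.83 in sh2 and 0.52 in sh1, and its sh1 call was lost without control array 3 or sh1 array 1 or 3 (adjusted p 0.0519 to 0.0638). DST, a linker of the cytoskeleton, had -0.79 in sh2, which did not pass (adjusted p = 0.0514), and fell by 1.31 in sh1. HSP90AB1, the constitutive cytosolic HSP90 chaperone, had 16.12, 16.19 and 16.10 in sh2, 16.06, 16.11 and 16.23 in sh1, and 16.33, 16.42 and 16.34 in the control. The sh2 and sh1 arrays lay below those of the control, but its difference of -0.23 in each line did not pass (adjusted p = 0.23 in sh2 and 0.21 in sh1).

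Of 23 measured cell cycle and growth genes of 6p, some of them outside this stretch, 11 fell (47.8%) and 2 rose (8.7%) in sh2, beside 7.98% and 8.33% of all rows. In sh1, 10 fell (43.5%) and 2 rose (8.7%), beside 9% and 9.76% of all rows. The medians of the list were -0.38 in sh2 and -0.39 in sh1, beside 0.02 for all rows in both. Of the 23, 18 lay at or above the median signal. Among all such rows 12.9% were lower and 13.6% higher in sh2, and 14.3% and 15.7% in sh1. CDKN1A had 7.41, 7.50 and 7.28 in sh2, 8.24, 8.0 and 8.17 in sh1, and 9.66, 9.32 and 9.48 in the control. The groups did not overlap. It fell by 2.09 ± 0.14 in sh2 and by 1.35 ± 0.14 in sh1 (SE, limma, adjusted p = 1.07e-06 and 3.14e-05), more than the stretch as a whole. RUNX2, a transcription factor best known from bone, fell by 1.38 in sh2 and 1.91 in sh1. CDC5L, a component of the spliceosome, fell by 0.84 in sh2 and 0.92 in sh1.

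Genes that left the stretch upward were few. BMP5, a secreted ligand of the BMP family, had 8.18, 8.25 and 8.53 in sh2, 9.40, 9.59 and 9.01 in sh1, and 6.96, 6.61 and 6.43 in the control, with no overlap between groups. It rose by 1.65 ± 0.19 in sh2 and by 2.67 ± 0.19 in sh1 (SE, adjusted p = 9.73e-05 and 2.05e-06). PIM1, a survival kinase, which was picked out after its values were seen, had 8.82, 8.49 and 8.78 in sh2, 10.48, 10.39 and 10.13 in sh1, and 8.48, 8.36 and 8.49 in the control. Its 0.25 in sh2 did not pass (adjusted p = 0.283), while it rose by 1.89 in sh1 (adjusted p = 3.23e-06). MAPK13, the delta form of the p38 kinases, lies just before the stretch and below the split, and it rose by 1.12 in sh2 and 1.21 in sh1.

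Deeper falls than that of the stretch as a whole were seen in both lines for BEND6, SUPT3H, CCDC167 and PTK7. BEND6, a BEN domain protein, had 7.94, 7.75 and 8.18 in sh2, 8.26, 8.23 and 7.80 in sh1, and 10.05, 10.18 and 10.13 in the control, and it fell by 2.16 in sh2 and 2.02 in sh1. SUPT3H, a subunit of the SAGA coactivator, fell by 1.94 in sh2 and fell by 2.32 in sh1. PTK7, a pseudokinase of planar cell polarity, fell by 1.95 in sh2 and 1.16 in sh1. The sh2 and sh1 arrays overlapped for BEND6 and SUPT3H but not for PTK7.

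In the stretch from MICA to TEAD3 several antigen presentation genes fell in both lines. TAPBP had 12.49, 12.44 and 12.15 in sh2, 12.25, 12.31 and 12.05 in sh1, and 14.03, 13.54 and 13.88 in the control. It fell by 1.46 ± 0.16 in sh2 and by 1.61 ± 0.16 in sh1 (SE, limma, adjusted p = 7.8e-05 and 2.81e-05), and both lines lay apart from the control. PSMB9 had 10.59, 10.36 and 10.62 in sh2, 11, 10.66 and 10.93 in sh1, and 11.78, 11.93 and 11.83 in the control. It fell by 1.32 in sh2 and 0.98 in sh1, and PSMB8 fell by 1.05 in sh2 and 0.95 in sh1, without overlap with the control.

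TAP1, whose promoter faces that of PSMB9, was shown after its values were seen. Its signals were 7.85, 7.53 and 7.60 in sh2, 8.41, 8.63 and 8.33 in sh1, and 9.04, 8.91 and 8.97 in the control, and the 3 groups did not overlap. It fell by 1.31 in sh2 (adjusted p = 5.13e-05) and by 0.52 in sh1 (adjusted p = 0.0198). The sh1 call was lost without control array 1 or 3 (adjusted p = 0.0724 and 0.0537) or sh1 array 1 or 3 (adjusted p = 0.0637 and 0.0748). The difference of sh2 minus sh1 for TAP1 was -0.80 (adjusted p = 0.00251).

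Of 12 measured genes listed under MHC class I presentation, HFE among them, 8 fell in sh2 (66.7%, beside 7.98% of all rows) and 6 in sh1 (50%, beside 9%). Of these, 5 fell in both, and none of the 12 rose. The list medians were -0.89 in sh2 and -0.52 in sh1, beside 0.02 for all rows in both. At or above the median signal, where 11 of the 12 lie, 12.9% of all rows were lower in sh2 and 14.3% in sh1. Several of the 12 lie in the MICA to TEAD3 stretch, where 43.4% of bright rows were lower in sh2 and 47.2% in sh1. A shift of the list apart from that of the stretch was not tested. The class I genes HLA-C and HLA-G, chosen after their values were seen, lie at and before the end of the histone stretch. They fell by 0.82 and 0.77 in sh2, and their -0.48 and -0.36 in sh1 did not pass (adjusted p = 0.0738 and 0.0549). HLA-F fell by 1.02 in sh2 and 0.54 in sh1, but the sh1 call was lost without control array 1 or 2 (adjusted p = 0.0758 and 0.064) or sh1 array 1 or 2 (adjusted p = 0.0731 and 0.0557). HLA-E, MICA and MICB had differences of -0.01, -0.43 and -0.38 in sh2 and 0.23, 0.11 and 0.16 in sh1, and none passed against the control. For MICB, picked out after its values were seen, the difference of sh2 minus sh1 was -0.53 (adjusted p = 0.02), and the call was lost without sh1 array 3 or sh2 array 2 (adjusted p = 0.0792 and 0.0841). HLA genes are near-identical and variable between people, so their probes may share signal, and the values are uncertain.

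**Figure D4:**
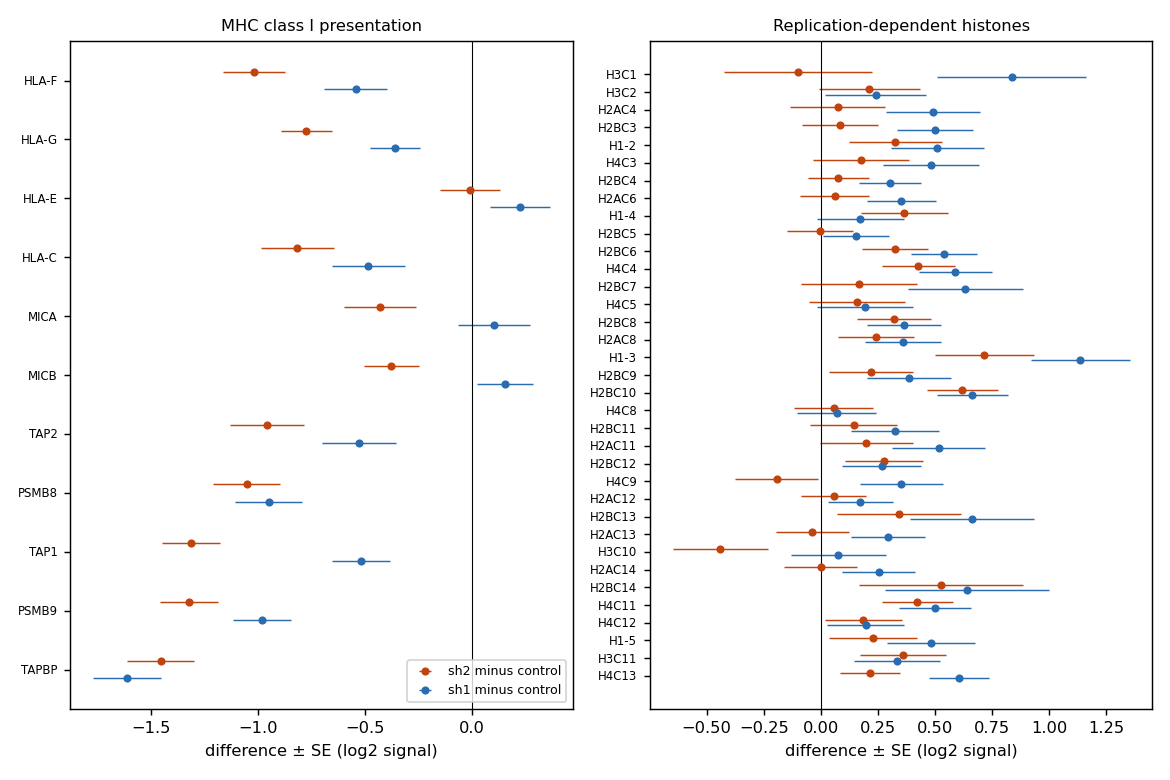
Differences from the control ± SE (log2 signal, horizontal axes) for the bright members of MHC class I presentation (left) and of the replication-dependent histones (right), in gene order, for sh2 and sh1. TAPBP lies at -1.46 in sh2 and -1.61 in sh1, and H1-3, the highest histone in both lines, at 0.72 in sh2 and 1.14 in sh1.

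None of 10 measured class II genes reached the median signal, and none passed the test in either line. Among 8 measured complement and cytokine genes of the class III region, C4A alone passed, with falls of 0.84 in sh2 and 0.56 in sh1. It has a near-identical copy, C4B, and its sh1 call was lost without any 1 of the control arrays or without sh1 array 1 (adjusted p 0.0581 to 0.113). The 6 NKG2D ligands of 6q, which flag stressed cells to natural killer cells, had differences of -0.44 to 0.53 in sh2 and -0.23 to 0.61 in sh1, and none passed, though probes of these close relatives may share signal.

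Other bright genes of the MICA to TEAD3 stretch fell in both lines. CLIC1, an intracellular chloride channel protein, fell by 0.97 in sh2 and 0.79 in sh1, and BAG6, a chaperone of proteins bound for membranes or degradation, by 1.02 in sh2 and 1.04 in sh1. RPS18, a protein of the small ribosomal subunit, fell by 0.58 in sh2 and 0.63 in sh1, whereas RPS10 had -0.16 in sh2 and -0.15 in sh1 and did not pass (adjusted p = 0.44 and 0.447). Ribosomal protein genes have many processed copies, so these values are uncertain. HMGA1, an architectural chromatin protein, went against the stretch, with 14.49, 14.22 and 14.26 in sh2, 13.87, 14.05 and 13.85 in sh1, and 13.60, 13.48 and 13.52 in the control. It rose by 0.79 in sh2 (adjusted p = 0.00123), and its 0.39 in sh1 did not pass (adjusted p = 0.0534).

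Of 49 measured replication-dependent histone genes, 3 rose in sh2 (6.12%, beside 8.33% of all rows) and 9 in sh1 (18.4%, beside 9.76%), 2 of them in both (H1-3 and H2BC10), and none fell. At or above the median signal, where 35 of them lie, 13.6% of all rows were higher in sh2 and 15.7% in sh1. The histone share was thus no more than the background in sh2 and near that of bright rows in sh1. The list medians were 0.20 in sh2 and 0.36 in sh1, beside 0.02 for all rows. H1-3, a linker histone, had 10.22, 9.21 and 9.59 in sh2, 10.03, 10.29 and 9.96 in sh1, and 8.92, 9.06 and 8.89 in the control. It rose by 0.72 in sh2 (adjusted p = 0.0432) and by 1.14 in sh1 (adjusted p = 0.00315), and without sh2 array 1 the sh2 difference was 0.44 with an adjusted p of 0.109. The sh2 call also failed without any 1 of the control arrays, sh2 array 3, or sh1 array 1 or 3 (adjusted p 0.0563 to 0.114). H2BC10 rose by 0.62 in sh2 and 0.66 in sh1, and its sh2 call failed without control array 2 or 3 or sh2 array 1 (adjusted p 0.0529 to 0.0732). Most histone mRNAs lack a poly(A) tail and many genes are near copies of each other, so single members are uncertain.

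Bright rows that rose in both lines numbered 15 of 237 on 6q, 1 of 79 from CDKN1A to PRIM2 and 0 of 53 from MICA to TEAD3. Among all bright rows 7.42% rose in both, so 6q held no more of them than the background. GJA1 (connexin 43, a gap junction channel) had 12.65, 12.69 and 12.81 in sh2, 12.62, 12.84 and 12.61 in sh1, and 8.99, 8.58 and 9.13 in the control. The lines overlapped each other far above the control, and the signal was 14.1-fold higher in sh2 and 13.8-fold higher in sh1 (adjusted p = 2.58e-08 and 3.03e-08). SERPINB9, the inhibitor of granzyme B, had 9.87, 9.65 and 9.81 in sh2, 9.46, 9.35 and 9.31 in sh1, and 7.02, 7.0 and 7.52 in the control, a rise of 2.60 in sh2 and 2.19 in sh1. PLEKHG1 rose by 1.88 in sh2 and 4.06 in sh1. NKAIN2 rose by 1.34 in sh2 and 1.92 in sh1. ADGRF1, an adhesion G protein-coupled receptor below the signal split that lies between CDKN1A and PRIM2, rose by 1.61 in sh2 and 1.82 in sh1.

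**Figure D5:**
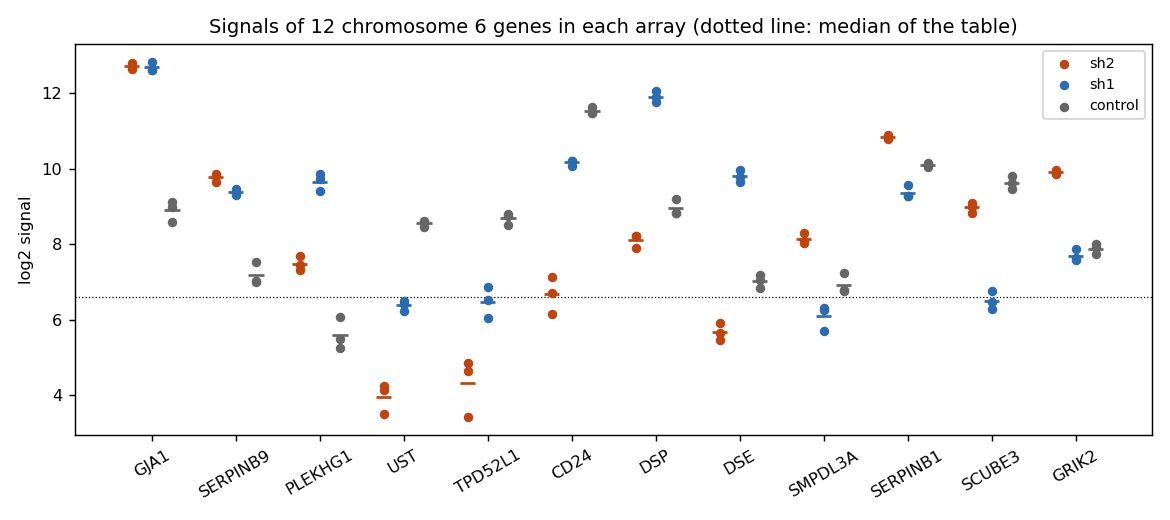
Log2 signal (vertical axis) in each array (points) with the group mean (lines) for 12 chromosome 6 genes, in sh2, sh1 and the control, with the median of the table as a dotted line. GJA1 lies above 12 in all sh2 and sh1 arrays and near 9 in the control, and DSP and DSE stand highest in sh1.

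The largest falls in sh2 included 2 enzymes of glycans on 6q, UST and MAN1A1. UST, which sulfates uronic acids of dermatan and chondroitin sulfate, had 4.12, 3.5 and 4.23 in sh2, 6.41, 6.49 and 6.24 in sh1, and 8.58, 8.45 and 8.62 in the control. It fell by 4.60 in sh2 and 2.17 in sh1 (adjusted p = 2.02e-08 and 7.99e-06), and the groups stood apart, with the sh2 signals near the lower quartile of the table (4.21). MAN1A1, a mannosidase that trims N-glycans in the Golgi, fell by 3.40 in sh2 and 2.10 in sh1. TPD52L1, a protein of the TPD52 family, fell by 4.38 in sh2 and 2.22 in sh1. SLC2A12, a glucose transporter, fell by 1.75 in sh2 and 1.92 in sh1, and on 6p RNF182, a ubiquitin ligase, fell by 2.04 in sh2 and 2.76 in sh1.

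CD24, a mucin-like surface protein used as a marker of epithelial and progenitor cells, had 7.14, 6.16 and 6.70 in sh2, 10.22, 10.07 and 10.22 in sh1, and 11.63, 11.48 and 11.49 in the control. It fell by 4.87 ± 0.20 in sh2 and by 1.36 ± 0.20 in sh1 (SE, adjusted p = 3.27e-08 and 0.000639). The 3 groups did not overlap. The list for adhesion, junctions and the cytoskeleton was drawn broadly, and it also held SMPDL3A, ENPP1, PCMT1 and ITPR3. Of its 39 measured genes, 13 fell (33.3%) and 4 rose (10.3%) in sh2, and 14 fell (35.9%) and 6 rose (15.4%) in sh1. Its medians were -0.19 in sh2 and -0.17 in sh1. Among all rows 7.98% were lower and 8.33% higher in sh2, and 9% and 9.76% in sh1. Of the 39, 26 lay at or above the median signal. Among all such rows 12.9% were lower and 13.6% higher in sh2, and 14.3% and 15.7% in sh1. PERP, a membrane protein of desmosomes, fell by 1.47 in sh2 and 1.42 in sh1.

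Opposite changes were called for DSE, DSP, SMPDL3A, PRDM1 and SERPINB1. DSP, the desmosomal plaque protein desmoplakin, had 8.22, 7.90 and 8.22 in sh2, 11.77, 12.07 and 11.90 in sh1, and 8.83, 8.84 and 9.19 in the control. It fell by 0.84 in sh2 and rose by 2.96 in sh1 (adjusted p = 0.00282 and 1.75e-07). DSE, the epimerase of dermatan sulfate, had 5.65, 5.46 and 5.91 in sh2, 9.64, 9.98 and 9.78 in sh1, and 6.83, 7.05 and 7.19 in the control, and it fell by 1.35 in sh2 and rose by 2.78 in sh1. For both genes the control arrays lay between those of sh2 and sh1.

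SERPINB1, an inhibitor of neutrophil proteases that lies near SERPINB9, had 10.86, 10.89 and 10.78 in sh2, 9.56, 9.27 and 9.28 in sh1, and 10.12, 10.16 and 10.04 in the control. It rose by 0.74 in sh2 and fell by 0.74 in sh1 (adjusted p = 0.00185 and 0.00151), unlike SERPINB9, which rose in both. SMPDL3A, a phosphodiesterase related to acid sphingomyelinase, rose by 1.21 in sh2 and fell by 0.84 in sh1. PRDM1 (BLIMP1, a transcriptional repressor) fell by 0.92 in sh2 and rose by 0.75 in sh1.

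For several other genes the difference between the lines passed the test. SCUBE3, a secreted signalling protein at the end of the MICA to TEAD3 stretch, had 9.10, 8.99 and 8.84 in sh2, 6.76, 6.48 and 6.28 in sh1, and 9.46, 9.62 and 9.81 in the control. Its fall of 0.65 in sh2 (adjusted p = 0.0137) was lost without control array 3 or sh2 array 3 (adjusted p = 0.0578 and 0.0537), and it fell by 3.12 in sh1. GRIK2, a kainate receptor subunit, had 9.85, 9.88 and 9.98 in sh2, 7.64, 7.88 and 7.58 in sh1, and 7.92, 7.73 and 8.0 in the control, a rise of 2.02 in sh2 beside -0.18 in sh1 (adjusted p = 0.408). RRAGD, a Rag GTPase that recruits mTORC1 to lysosomes, had -0.34 in sh2 (adjusted p = 0.0942) and rose by 2.56 in sh1. FAXC fell by 2.53 in sh2 and had 0.51 in sh1 (adjusted p = 0.0745), and SOBP had -0.12 in sh2 (adjusted p = 0.695) and fell by 2.13 in sh1.

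The remaining lists were smaller or mixed. Of 39 measured mitochondrial protein genes on chromosome 6, 9 fell (23.1%) and 1 rose (2.56%) in sh2 and 10 fell (25.6%) and 3 rose (7.69%) in sh1, with medians of -0.18 in sh2 and -0.24 in sh1. For these and the lists that follow, the shares of all rows were 7.98% lower and 8.33% higher in sh2, and 9% and 9.76% in sh1. Among bright rows alone the shares were 12.9% lower and 13.6% higher in sh2, and 14.3% and 15.7% in sh1. Of the 39 mitochondrial genes, 32 lay at or above the median signal. Among them MPC1, a subunit of the mitochondrial pyruvate carrier on 6q, had 9.47, 9.80 and 9.78 in sh2, 9.49, 9.54 and 9.39 in sh1, and 10.59, 10.68 and 10.70 in the control, and it fell by 0.97 in sh2 and 1.18 in sh1, without overlap with the control. LYRM2, a mitochondrial protein of the LYR family, fell by 1.03 in sh2 and 1.10 in sh1. Of 17 measured genes of the lipid list, which also held FAXC, 6 fell and 0 rose in sh2 and 6 fell and 2 rose in sh1. Of these, 5 were lower in both, among them ACAT2, a cytosolic thiolase, by 1.96 in sh2 and 0.77 in sh1. Of 18 measured genes listed with cytokine receptors and NF-kB regulators, among them the peptide precursor gene EDN1, 4 fell in sh2 and 5 in sh1 and none rose. TNFAIP3 (A20, an inhibitor of NF-kB signalling) fell by 1.41 in sh2 and 0.87 in sh1, and EDN1, the precursor of endothelin 1, by 2.37 in sh2 and 0.86 in sh1.

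Of 32 measured cell cycle, signalling and tumour suppressor genes on 6q, 9 fell (28.1%) and 8 rose (25%) in sh2, and 8 fell (25%) and 5 rose (15.6%) in sh1, with medians of -0.16 in sh2 and -0.06 in sh1. At or above the median signal, where 27 of them lie, 12.9% of all rows were lower and 13.6% higher in sh2, and 14.3% and 15.7% in sh1. SGK1, a kinase induced by serum and glucocorticoids, fell by 1.36 in sh2 and 1.18 in sh1. SASH1, a scaffold of signalling proteins, rose by 0.97 in sh2 and 1.01 in sh1, and its sh2 call was lost without control array 1 or 2 or sh2 array 2 (adjusted p 0.059 to 0.066). Of the glutathione S-transferase alpha genes of 6p, GSTA4, which lies between CDKN1A and PRIM2, alone was at or above the median signal. It had 0.32 in sh2 (adjusted p = 0.261) and fell by 0.59 in sh1, a call lost without any 1 of the sh1 arrays or control array 2 or 3 (adjusted p 0.0546 to 0.119). No collagen gene of chromosome 6 reached the median signal, COL21A1 fell by 1.77 in sh2 and 1.43 in sh1, and COL12A1 fell by 1.46 in sh2 and had -0.63 in sh1 (adjusted p = 0.0547).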

How the data were processed

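Total RNA (100 ng) was labelled with biotin by the WT Plus kit for 1-colour whole-transcript arrays, 9 in all, per the labels' protocols. The authors deposited log2 signals, read as such from their range, which were summarised with Transcriptome Analysis Console per the submitters' processing notes (its version is not given in the sources used), and the values were used as deposited. Groups came from the sample labels.

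limma 3.58.1 in R 4.3.3 fitted 1 linear model over the 9 arrays, with Benjamini-Hochberg adjustment over all 21448 rows and calls at an adjusted p under 0.05. The fit was tested on simulated data. Fold changes are differences of log2 signal unless written as folds, and SE is from the model. Rows were ordered by RefSeq (GRCh38.p14), since no build is given for the array's own annotation. The arms were divided at the widest gap between placed genes, before KHDRBS2. Tables and plots used Python 3.11.15 with pandas 2.3.3, numpy 2.4.6 and matplotlib 3.10.9. The number of arrays limits the precision.

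The members, gene lists and tests were chosen with earlier results of these data known. Genes were named by a rule: STOML2, the 8 up and 8 down with the largest smaller change in both lines, the 5 largest rises and 5 largest falls of each comparison, opposite calls, the ends and 6 brightest rows of each run, up to 4 called members of each list, rows next to the split, and rows where the running median changed sign. TAP1, TAP2, HLA-C, HLA-G, PIM1 and MICB were added after their values were seen. Array numbers were not used as pairs: the deviations of 2 arrays that share a number correlated at -0.0358 to 0.180 across rows, and 2 of 9 pairs were over 0.1. Alternatives covered scaling, filters, variance prior, the groups in the fit, threshold, array block, signal split, window, run size, row order, the row used for a gene and the omission of each array.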

Additional observations from a re-analysis of the deposited data

Results flagged for a closer look

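Among the named genes of chromosome 6, 34 were singled out because the direct difference of sh2 minus sh1 passed the test (limma, adjusted p under 0.05 over all rows), that is, because the lines differed from each other in their change from the control. For the genes with opposite changes the difference was -4.13 for DSE, -3.80 for DSP, 2.05 for SMPDL3A, -1.68 for PRDM1 and 1.47 for SERPINB1. Genes higher in sh2 than in sh1 had 2.47 for SCUBE3, 2.20 for GRIK2, 2.01 for SOBP, 1.86 for DACT2, 1.79 for ARHGAP18, 0.97 for HFE, 0.90 for GSTA4, 0.83 for AGPAT4, 0.71 for RNF182 and 0.66 for TIAM2. Genes lower in sh2 than in sh1 on the larger side had -3.50 for CD24, -3.04 for FAXC, -2.90 for RRAGD, -2.43 for UST, -2.18 for PLEKHG1, -2.17 for TPD52L1, -1.64 for PIM1, -1.50 for EDN1, -1.31 for MAN1A1, -1.18 for ACAT2 and -1.01 for BMP5. Smaller differences below 0 were -0.83 for COL12A1, -0.80 for TAP1, -0.79 for PTK7, -0.74 for CDKN1A, -0.58 for NKAIN2, -0.54 for TNFAIP3, -0.53 for MICB and -0.41 for HLA-G. The calls for NKAIN2, TIAM2, COL12A1, TNFAIP3 and MICB were lost in at least 1 omission of a single array. Their adjusted p rose to 0.119 for NKAIN2, 0.0645 for TIAM2, 0.0866 for COL12A1, 0.0655 for TNFAIP3 and 0.0841 for MICB. The HLA-G call was lost whichever of the 9 arrays was left out (adjusted p 0.057 to 0.147). Each line is 1 clone, so a difference between the hairpins and a difference between clones cannot be told apart.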

How the results depend on the processing

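The directions against the control of 6p, 6q and the stretches KDM1B to HLA-C, MICA to TEAD3 and CDKN1A to PRIM2 held in both lines under every alternative that was run. Of 5490 values of 324 gene results, 0 reversed, while 132 lost and 71 gained a call. Not all of these could reverse. The array block, variance prior, threshold, row filter of the fit and groups in the fit leave every difference unchanged. The size of the regional shift depended on the signal split, by construction, since dim rows had medians near 0. With all rows the medians were -0.17 (sh2) and -0.18 (sh1) from MICA to TEAD3, -0.25 and -0.32 from CDKN1A to PRIM2, -0.0583 and -0.09 for 6p, and -0.0833 and -0.105 for 6q, and runs held 40 rows in sh2 and 41 in sh1. With rows at or above the lower quartile they were -0.31 and -0.32, -0.62 and -0.58, and -0.125 and -0.20 for the first 3, with 73 rows in runs in sh2. With rows at or above the upper quartile sh1 had -0.63 from MICA to TEAD3, and runs in sh2 held 56 rows. Runs held 83 rows in sh2 with a window of 20 rows and 137 in sh1 at a size of 0.3.

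Leaving out each array in turn gave -0.79 to -0.69 from CDKN1A to PRIM2 in sh2, -0.085 to 0.015 for sh2 minus sh1 over 6p, 79 to 141 rows in runs in sh2, and 45 to 62 rows higher in sh2 than in sh1, where all 9 arrays gave 69. At an adjusted p under 0.01 the rows higher numbered 33 in sh2 (52 at 0.05) and 35 in sh1 (65), and between the lines 33 were higher and 37 lower in sh2 (69 and 63). With the array number as a block, counts were 52 higher and 204 lower in sh2 and 70 higher and 212 lower in sh1. Each number occurs once per group, so a block cannot change a regional median, and the medians are no check of the pairing. The limits of the stretches within 6p were read from the sh2 running median, apart from that at KDM1B, which came from sh1. They carry the choices of window and size.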
